A study of Mus musculus with 16 samples.

Results

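Pseudouridine in rRNA was mapped by Ψ-seq in CD4 T cells of Rnmt cKO mice, and the comparison described here is that of the CMC-treated with the mock-treated RNA of the same cells. Its members are 8 of the 16 libraries of the study, 4 labelled Rnmt cKO CMC and 4 labelled Rnmt cKO mock, joined in pairs by the number in their titles. The cells came from the lymph nodes of female mice of the genotype Rnmt fl/fl CD4cre +, were cultured for 20 h on plates coated with anti-CD3 at 5 ug/ml and anti-CD28 at 1 ug/ml, and were lysed for total RNA. For each number, 300 ng of RNA was incubated in buffer with 0.17 M CMC and another 300 ng in the same buffer without it. The other 8 libraries, used only for contrast, came from control mice (Rnmt fl/fl CD4cre -) treated in the same way, so both genotypes carry the floxed allele and all cells were activated. Cre is driven by Cd4 regulatory elements, so deletion is limited to cells of the T lineage. A number is called an animal below, although the sources used here do not say whether it stands for a single mouse or a pool, and p-values measure the spread between these numbered samples. The deposited values are rRNA positions alone, so neither the loss of Rnmt nor the markers of CD4 T cells could be checked in these files.

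Pseudouridine is an isomer of uridine in which the base is joined to the sugar by a carbon. In rRNA it is made by dyskerin, the catalytic subunit of small nucleolar ribonucleoproteins, at uridines that box H/ACA snoRNAs select by base pairing, and it is concentrated in the parts of the ribosome where tRNA, mRNA and the subunits meet. RNMT is the methyltransferase that adds the methyl group to the guanosine cap of mRNA and other RNA polymerase II transcripts. The carbodiimide CMC leaves a bulky adduct on pseudouridine that survives alkali, and reverse transcriptase stops on the nucleotide 3′ of it. cDNA ends therefore gather 1 nucleotide downstream of a pseudouridine in the CMC library and not in the mock library, which shows the stops that occur without CMC.

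Termination at a nucleotide was the number of reads that start there as a percentage of the reads that start in the 65 nt ending there, and the PSU score was the CMC termination divided by the mock termination of the same animal. Calling a site took 3% or more of CMC termination and a PSU score of 3 or more, each as a mean of the 4 animals, and a site was named by the nucleotide 1 upstream of its stop. Of the 6874 positions that could be called, 64 were (0.931%), 26 in 18S rRNA and 38 in 28S rRNA. The 5.8S and 5S rRNAs held no called site. The CMC libraries held 1638354 to 2066120 read starts and the mock libraries 1130058 to 1827610.

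Sequence could be set beside 37 of the 64 sites, 24 of them in 18S and 13 in 28S. It was read from copies of rRNA in the GENCODE vM21 transcripts of the mouse genome (GRCm38, plus strand), since the rRNA sequences of the alignment were not used here. The 18S copy lies on chromosome 17, where it overlaps the annotated gene Gm42418, and the 28S copy lies in the 3′ untranslated region of Lars2 on chromosome 9. Such copies can differ from the transcribed rRNA, and T stands for U. The register of each copy was the one that put the longest run of neighbouring called sites on T, and the stretch read was that run. T at every called site within a stretch therefore follows from this choice. Only the length of a run can be set against other registers. The 13 sites from 28S 3949 to 4232 all fell on T at a single register of 5230 tried, and the next best register gave a run of 7. In 18S the 21 sites from 683 to 1694 all fell on T at 1 register of 41, with a next longest run of 4. The 3 sites from 18S 34 to 119 were placed by a different register, 5 nt from that one, which rests on these 3 sites alone with a next longest run of 2 over 41 registers, so their sequence and that of 18S 36 are less firmly placed. T makes up 23.8% of the 1382 nucleotides covered. At the ends of the runs, 18S 222 and 28S 4281 also read T but were left out. Each was nearer to a called site off T than to its own run. 18S 220 read C at the register of 34 to 119 and A at that of 683 to 1694. 18S 220 and 222 were thus not placed.

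The sites with the highest PSU scores for which sequence was at hand are shown first, because they are the strongest CMC-dependent stops of the map. The called nucleotide is in capitals, and 8 nucleotides on each side are in lower case.
18S 1694 (chr17:39848043-39848059): ctgcccttTgtacacac
28S 4095 (chr9:123462004-123462020): ctttttgaTccttcgat
18S 119 (chr17:39846463-39846479): atggttccTttggtcgc
28S 4073 (chr9:123461982-123461998): ccaagcgtTcatagcga
18S 34 (chr17:39846378-39846394): tatgcttgTctcaaaga
28S 4232 (chr9:123462141-123462157): atgtgttgTtgccatgg
18S 109 (chr17:39846453-39846469): taaatcagTtatggttc
The sites of highest CMC termination follow, with the 2 pairs of adjacent called nucleotides, 1047 and 1048 and the less strong 816 and 817, shown with both in capitals because each had its own excess of read starts.
18S 683 (chr17:39847032-39847048): gctcgtagTtggatctt
18S 824 (chr17:39847173-39847189): ttagagtgTtcaaagca
18S 816 and 817 (chr17:39847165-39847182): tgaaaaaaTTagagtgtt
18S 1047 and 1048 (chr17:39847396-39847413): gtcggagtTTcgaagacg
28S 3952 (chr9:123461861-123461877): gatcttgaTtttcagta
28S 4185 (chr9:123462094-123462110): gctgggatTagaccgtc
The nucleotide before the site was T at 15 of the 37 sites (40.5%), A at 11 (29.7%), G at 9 (24.3%) and C at 2 (5.41%). Over the 1382 nucleotides covered, T, A, G and C made up 23.8%, 22.7%, 28.8% and 24.7%. This difference was not tested.

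Across the 64 sites, mean CMC termination ran from 3.01% to 11.2% with a median of 5.81%, and mean mock termination from 0.471% to 2.38% with a median of 1.1%. The mean PSU score ran from 3.09 to 9.02, with a median of 5.09. At all 64 sites every CMC library lay above every mock library. As the thresholds use these same values, this separation describes the sites and does not test them.

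**Figure D1:**
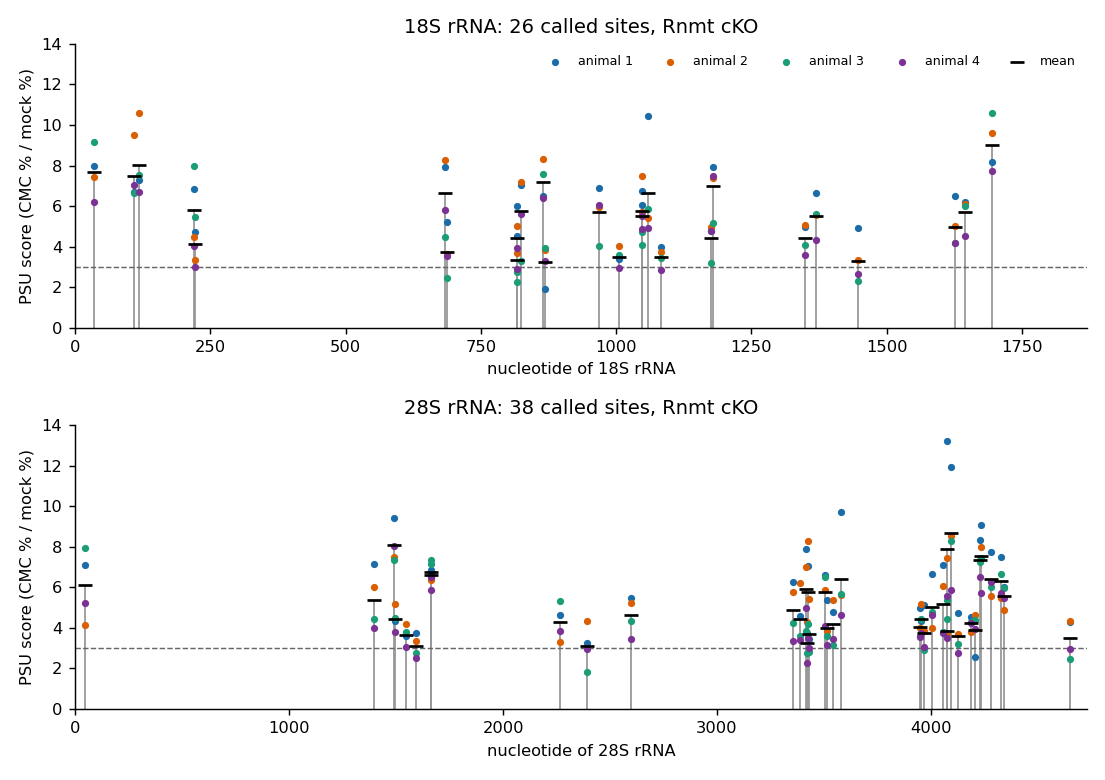
PSU score (vertical axis, CMC % over mock %) at each called site against the nucleotide of 18S rRNA (top) and 28S rRNA (bottom) in Rnmt cKO. Coloured points are the 4 animals, black dashes the means and the dashed line the threshold of 3; the 28S sites lie mostly beyond nucleotide 3001 and no site was called between 28S 45 and 1396.

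The highest mean PSU score was at 18S 1694, near the 3′ end of the small subunit rRNA. CMC termination there was 8.99%, 8.47%, 8.08% and 6.71% in animals 1 to 4, against 1.1%, 0.881%, 0.764% and 0.868% in their mock libraries. The PSU score was 9.02 ± 1.31 (SD, n = 4), and termination was higher in CMC by a log2 change of 3.16 (SE 0.135; edgeR, adjusted p = 1.76e-06). Its arms were far apart in each animal, with the smallest ratio, 7.73, in animal 4.

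28S 4095 had the second highest score, 8.66 ± 2.49 (SD, n = 4). The CMC termination was 6.06%, 5.24%, 4.75% and 3.85%, and the mock termination 0.509%, 0.613%, 0.572% and 0.656%. The spread between animals was wide here, since the animal with the highest CMC value had the lowest mock value and the animal with the lowest CMC value the highest.

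28S 1491 and 18S 119 had the lowest stop without CMC among the leading sites. At 28S 1491 the mock termination was 0.486%, 0.491%, 0.526% and 0.425%, and the CMC termination 4.57%, 3.69%, 3.87% and 3.41%, which gave a score of 8.07 ± 0.931. At 18S 119 the mock termination was 0.567%, 0.408%, 0.495% and 0.415% and the CMC termination 4.13%, 4.32%, 3.74% and 2.77%, with a score of 8.03 ± 1.75. High scores at both sites thus came with a CMC termination under 5%, below the median of the map.

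28S 4073 was the least even of the leading sites. Its scores were 13.2, 7.46, 5.36 and 5.57, a mean of 7.90 ± 3.67, and animal 1 stood apart through its mock library, with 0.371% against 0.683%, 0.815% and 0.718% in the others. CMC termination there was even, at 4.90%, 5.09%, 4.37% and 4.00%. The remaining leading sites were 18S 34 (7.70 ± 1.23), 28S 4232 (7.56 ± 1.40) and 18S 109 (7.47 ± 1.37), and at these 3 the lowest score of any animal was 5.70.

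Sites with the highest CMC termination were not those with the highest scores, because their mock termination was also higher. At 18S 1047 the CMC termination was 12.0%, 10.8%, 11.4% and 10.7% and the mock termination 1.98%, 1.44%, 2.42% and 2.19%, which gave a PSU score of 5.77 ± 1.29 (SD, n = 4). At 18S 683 the CMC termination was 11.2%, 11.8%, 11.1% and 9.88%, and the score was 6.63 ± 1.81. At 18S 824 it was 11.8%, 11.2%, 10.4% and 9.62%, with a score of 5.77 ± 1.81. In these 3 sites the mock termination was highest in animal 3, at 2.42%, 2.49% and 3.15%.

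28S 3952 and 4185 completed the 5 sites of highest CMC termination. At 28S 3952 it was 11%, 10.3%, 10.1% and 9.33%, and the score was 4.43 ± 0.582. At 28S 4185 it was 9.10%, 8.55%, 9.22% and 9.82%, with a score of 4.21 ± 0.302, among the most even of the map. None of the 5 sites by CMC termination was among the 8 by score.

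**Figure D2:**
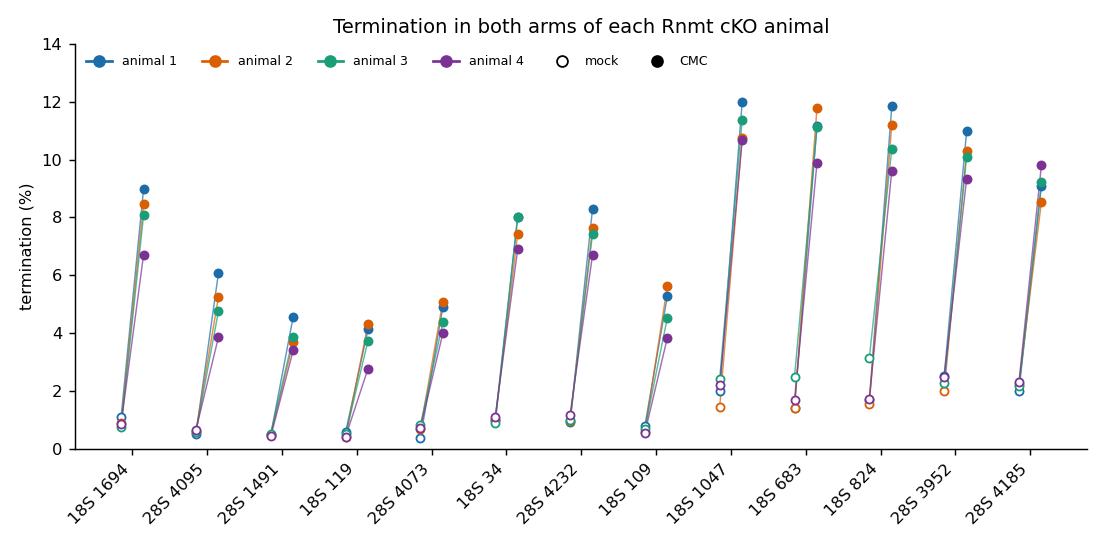
Termination (%, vertical axis) at the 8 sites of highest PSU score and the 5 of highest CMC termination, with open circles for mock, filled circles for CMC and a line joining the libraries of an animal. Each CMC point lies above every mock point of its site, and the sites on the right, from 18S 1047 on, have mock values up to 3.15%.

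Called sites were not spread evenly. In stretches of 500 nt of 18S, nucleotides 1 to 500 held 5 sites, 501 to 1000 held 8 and 1001 to 1500 held 10, and the last 371 nt held 3. In 28S nucleotides 4001 to 4500 held 13 sites, 3501 to 4000 held 7 and 3001 to 3500 held 6, while the 3000 nt before them held 11 in all. The longest stretch without a site in 28S ran from 45 to 1396, and that in 18S from 222 to 683. Sites lay within 10 nt of another called site at 16 of 26 places in 18S and at 16 of 38 in 28S.

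The rRNAs differed in the strength of the stops. The median CMC termination over sites was 6.22% in 18S and 4.97% in 28S, and the median mock termination 1.31% and 0.992%. The median PSU score was 5.61 in 18S and 4.76 in 28S. A shift of reads between the rRNAs was not detectable. The share of read starts on 18S was 21.0 ± 0.596% in CMC and 20.7 ± 0.673% in mock (SD, n = 4; exact permutation test of the paired differences, 2-sided, p = 0.5), and the other 3 rRNAs gave p from 0.25 to 1. With 4 pairs the smallest p of this test is 1 in 8.

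All animals carried the map, but not with equal strength. The median PSU score over the 64 sites was 6.24, 5.40, 4.40 and 4.06 in animals 1 to 4. Animal 1 had the highest score of the 4 animals at 34 sites, and animal 4 had the lowest at 33 sites and the highest at 0. Median CMC termination over the sites was 6.12%, 6.03%, 5.73% and 5.36%, and median mock termination 1.01%, 1.13%, 1.12% and 1.16%, so the animals ranked alike by CMC termination and by score. Taken alone, animal 2 met both thresholds at 64 of 64 sites, animal 1 at 60, animal 3 at 53 and animal 4 at 49.

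Mock termination varied more between animals than CMC termination did. The median coefficient of variation was 9.39% for CMC termination, 16.1% for mock termination and 22.1% for the PSU score, and mock termination was the more variable arm at 48 of 64 sites. Read starts were also fewer in the mock arm. A called stop had a median of 701 read starts in a CMC library and 123.5 in a mock library, and the 95% Wilson interval of a termination value reached, at the median, 7.16% of the value to either side in CMC and 17.6% in mock. The fewest read starts were 20 of 4306, at 18S 865 in the mock library of animal 3, which is 0.464% with an interval of 0.301% to 0.716%. These intervals cover counting error only. Their 95% half-widths are wider than an SD would be, so they are not on the scale of the coefficients of variation.

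The score was most variable at 28S 4073, 28S 3427 and 18S 1058, with coefficients of variation of 46.5%, 39.9% and 38.3%. At 18S 1058 the scores were 10.4, 5.43, 5.84 and 4.94, where animal 1 stood apart, and at 28S 3427 they were 7.04, 8.30, 4.19 and 3.47. It was least variable at 28S 1665, 28S 4185 and 28S 4342, with 4.65%, 7.16% and 9.41%. At 28S 1665 the scores were 6.76, 6.48, 7.17 and 6.53. Sites kept much of their order from animal to animal: Spearman's rho of the scores of 2 animals ran from 0.566 to 0.787 over 64 sites, which share library depth and sequence context and are not independent.

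**Figure D3:**
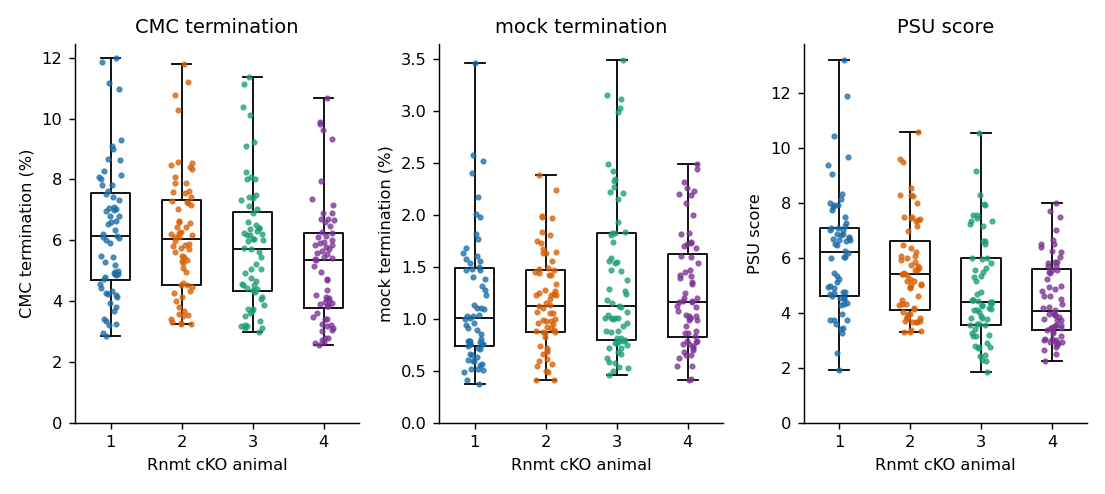
CMC termination (left), mock termination (middle) and PSU score (right) at the 64 called sites in each of the 4 Rnmt cKO animals. Points are sites, boxes the quartiles with the median and whiskers the full range; median scores are 6.24, 5.40, 4.40 and 4.06, while the medians of the mock arm lie between 1.01% and 1.16%.

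The thresholds cut through a continuous range of values. Just inside the CMC threshold lay 28S 4056 at 3.01% and 28S 4076 at 3.01%, and just outside it 18S 653 at 2.95% and 28S 1584 at 2.83%. Just inside the PSU threshold lay 28S 1595 with 3.09 ± 0.563 and 28S 2390 with 3.09 ± 1.02, and just outside it 28S 3423 with 2.95 ± 0.711 and 28S 4658 with 2.81 ± 0.564. At 28S 2390 the scores of the 4 animals were 3.27, 4.32, 1.83 and 2.96. A score of at least 3 was found in every animal at 49 of the 64 sites, in 3 animals at 9 and in 2 animals at 6.

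The effect of CMC was then tested at every position, whether called or not. Of the 4015 positions that averaged 1% termination or more, termination differed between CMC and mock at 322 (8.02%), higher in CMC at 231 (5.75%) and lower at 91 (2.27%; edgeR quasi-likelihood test with Benjamini-Hochberg adjustment, threshold 0.05, animal as block). With library sizes scaled by TMM in place of the window, 203 were higher and 34 lower, and with median-ratio size factors 198 and 36. The count rested on each of 3 animals: it was 149 without animal 2, 186 without animal 3 and 170 without animal 4, with 139, 153 and 153 positions higher and 10, 33 and 17 lower. The median log2 change over all tested positions was -0.06.

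All 64 called sites were among the 231 higher positions, with log2 changes from 1.57 to 3.16 and a median of 2.29, which the choice of sites on the same libraries had to favour. With TMM library sizes all 64 were past the threshold, with log2 changes from 1.41 to 3.22. The control libraries took no part in that choice. In them, too, termination was higher in CMC at all 64 (edgeR, adjusted p at most 0.0233), against 4.5% of 4044 positions tested there, and the log2 changes ran from 1.29 to 3.34.

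**Figure D4:**
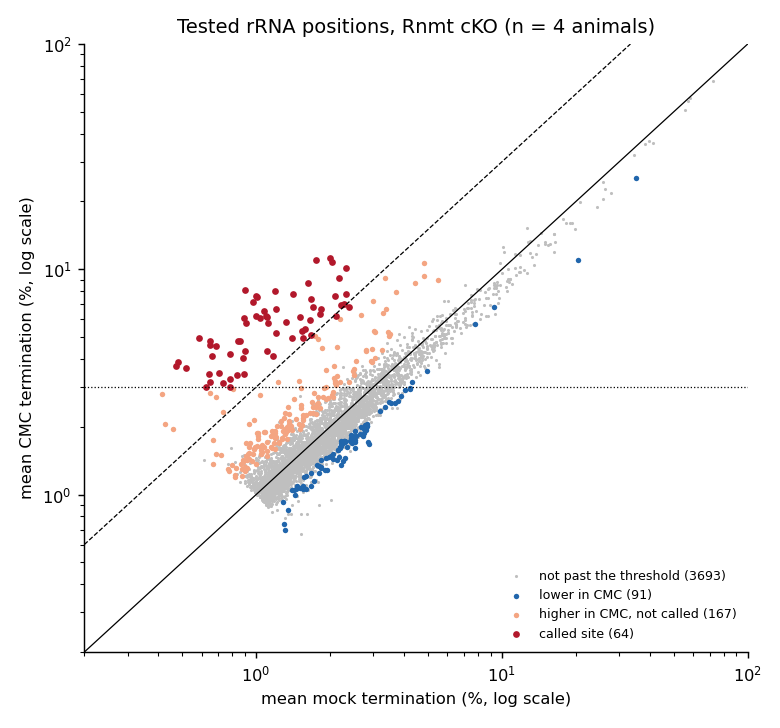
Mean CMC against mean mock termination (%, both axes on a log scale, n = 4 animals) at the 4015 positions tested in Rnmt cKO. Solid line: equal termination; dashed line: CMC 3 times mock; dotted line: CMC at 3%; the 64 called sites form the upper left cloud, 167 further positions were higher and 91 lower in CMC.

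The 167 higher positions that were not called had smaller changes, with a median log2 change of 0.64 and a range of 0.37 to 2.76. CMC raised termination by more than 1 on the log2 scale at 91 positions (2.27% of those tested), 64 called and 27 not. The largest of the 27 was 28S 4110, where the CMC termination of 3.13%, 2.74%, 2.89% and 2.43% averaged 2.80%, under the threshold, while the mock termination was 0.290%, 0.406%, 0.526% and 0.434%. Its PSU score of 7.16 ± 2.49 (SD, n = 4) would have stood among the highest of the map, and the log2 change was 2.76 (SE 0.161; edgeR, adjusted p = 6.92e-06). The next were 28S 3946 with 2.06% and a score of 4.99 ± 1.41, 28S 1584 with 2.83% and 4.40 ± 0.815, 18S 36 with 2.0% and 4.42 ± 1.60, and 28S 1585 with 2.72% and 4.17 ± 1.45. 28S 1584 and 1585 are adjacent, and 18S 36 lies 2 nt from the called 18S 34. Sequence was at hand for 2 of these 5.
28S 4110 (chr9:123462019-123462035): atgtcggcTcttcctat
18S 36 (chr17:39846380-39846396): tgcttgtcTcaaagatt
Of the 27, sequence was known at 8, with T at 6, C at 1 and A at 1.

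In 5.8S rRNA 2 nucleotides that were called in control missed the PSU threshold. At 5.8S 69 the CMC termination was 10.9%, 12.1%, 9.57% and 9.90%, high for the map, but the mock termination was 4.31%, 4.73%, 5.11% and 5.20%, so that the PSU score was 2.22 ± 0.380 (SD, n = 4). At 5.8S 55 it was 5.84%, 6.21%, 5.23% and 3.99% in CMC and 2.19%, 3.61%, 2.53% and 3.69% in mock, with a score of 1.88 ± 0.663. Termination was higher in CMC by a log2 change of 1.13 at nucleotide 69 (SE 0.128) and of 0.84 at nucleotide 55 (SE 0.194; edgeR, adjusted p = 0.0331). Both were thus past the test of CMC against mock in Rnmt cKO but under the score threshold. The control calls rested on widely spread scores, 3.59 ± 1.91 (2.43 to 6.43) at nucleotide 69 and 3.25 ± 2.56 (1.57 to 7.07) at nucleotide 55. The mock library of control animal 1 held 4.08% of its read starts on 5.8S, against 9.58% to 11.5% in the other control mock libraries. The part this library had in the spread was not tested. In control, CMC against mock was past the threshold at nucleotide 69 (edgeR, adjusted p = 0.0214) and not at nucleotide 55 (adjusted p = 0.0845). The difference between genotypes did not pass the adjustment at either (edgeR, adjusted p = 0.785).

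The base upstream of a stop could be compared for stops that played no part in setting the register. Among 784 tested stops that were not called and had known sequence, 42 were higher in CMC (5.36%). They were 37 of 227 stops after T (16.3%), 4 of 174 after A (2.30%), 1 of 182 after C (0.549%) and none after G (0%). The median log2 change was 0.17 after T, and -0.22, -0.22 and -0.20 after A, C and G. With TMM library sizes, a choice made after the data had been seen, 33 of the stops after T were higher. Without animal 2 the number after T fell to 18. In the control libraries 34 of 224 stops after T were higher (15.2%), against 0.709% after the other bases.

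Stops were sharp. At the called stop the median log2 ratio of read starts in CMC to those in mock, each scaled to the library total, was 2.25, and 1 nt to its 5′ side, the nucleotide that carries the adduct, it was 0.21. From 2 to 30 nt on the 5′ side the median ratio was -0.27 to -0.12, and from 1 to 30 nt on the 3′ side -0.11 to 0.01, against -0.06 over all tested positions. Of 28 tested and uncalled positions just 5′ of a called stop 10 were higher in CMC, and of 45 just 3′ of it 4 were. The share over all tested positions was 5.75%, which also counts the called sites and so is above that of uncalled positions.

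**Figure D5:**
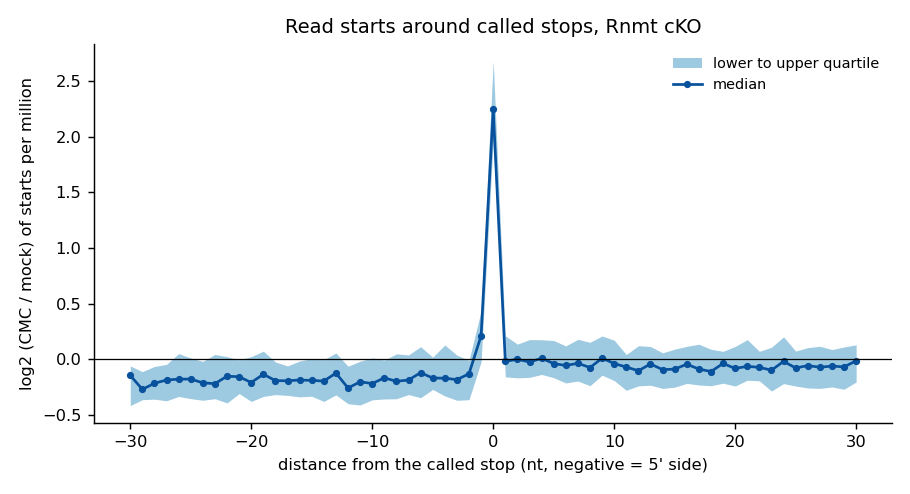
Median log2 ratio of library-scaled read starts in CMC to mock (vertical axis, mean of 4 animals, 1 added to each value) against the distance in nt from the called stop, with the range from the lower to the upper quartile of the stops shaded and other called stops left out. The ratio is 2.25 at the stop, 0.21 at the nucleotide 5′ of it and at or below 0.01 elsewhere.

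Lower positions had modest changes. The 91 had log2 changes from -0.91 to -0.36, and no position fell by more than 1 on the log2 scale. Of them 80 (87.9%) lay within 64 nt on the 3′ side of a called stop, against 32.2% of the tested positions that were not called. In that stretch the read starts of the called stop are part of the window, so termination is divided by a number that the stop itself raises in CMC. With TMM library sizes, which use no window, all 91 still had a negative log2 change, and 19 were past the threshold. The median log2 change of the 91 was -0.40 with TMM against -0.48 with the window. As the 91 were chosen for a fall in the same libraries, these values are a description. How much of the fall comes from the window was not tested.

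By the window-based value the largest fall was at stop 28S 4142, where the CMC termination was 0.843%, 0.548%, 0.772% and 0.626% and the mock termination 1.46%, 1.01%, 1.5% and 1.25%, a log2 change of -0.91 (SE 0.135; edgeR, adjusted p = 0.00333). It was followed by stop 28S 4182, the strongest stop among the 5. There the mock termination was 10.6%, 23.4%, 23.6% and 23.8% and the CMC termination 11%, 11.2%, 12.2% and 9.72%, so that the arms were far apart in animals 2, 3 and 4 and nearly equal in animal 1. Stops 18S 889, 1022 and 1112 had log2 changes of -0.78, -0.78 and -0.72. With TMM library sizes the order changed. The log2 change was then -0.91 at 28S 4182, about as before but not past the threshold (edgeR, adjusted p = 0.239), and -0.69 at 18S 1022, which was past it (adjusted p = 0.0198). It was smaller at 28S 4142, 18S 889 and 18S 1112, at -0.48, -0.54 and -0.30, and none of these passed (adjusted p from 0.0672 to 0.324). At stop 28S 4182 the log2 change was -0.37, -0.40 and -0.48 with windows of 30, 40 and 50 nt. Without animal 2, 3 or 4 it lay between -0.79 and -0.69 and was not past the threshold (edgeR, adjusted p from 0.104 to 0.147). Without animal 1 it was -1.10 and past it.

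At the strongest stops of the mock libraries no change with CMC was called. The highest, at 18S stop 1251, was 72.6 ± 3.08% in mock and 68.4 ± 2.70% in CMC (SD, n = 4), a log2 change of -0.08 (edgeR, adjusted p = 0.656). At 28S stop 4184 termination was 55.3 ± 8.45% in mock and 50.9 ± 3.62% in CMC. At the 6 highest mock stops the log2 change ran between -0.19 and -0.02, and none was past the threshold.

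The effect of CMC in Rnmt cKO was compared with that in control by an interaction term over all 16 libraries. No position of 4026 was past the threshold (edgeR, 0%; lowest adjusted p = 0.387), with 244 at an unadjusted p under 0.05, and DESeq2 called 10 (0.248%). At the 64 sites the difference in log2 change, Rnmt cKO minus control, ran from -0.54 to 0.62 with a median SE of 0.20, and 6 sites had an unadjusted p under 0.05. Differences of that size could not be told from the spread between animals. Sites kept much of their order across genotypes, with a Spearman's rho of 0.823 between mean scores.

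The 7 sites called in Rnmt cKO and not in control lay near a threshold. They were 18S 868 and 1627 and 28S 3389, 3429, 3512, 4056 and 4205. At 28S 4205 the PSU score was 2.53, 4.61, 4.38 and 3.94, a mean of 3.87 ± 0.931, against 2.55 ± 0.782 in control (SD, n = 4 each). The difference of 0.62 in log2 change (SE 0.271) was the largest of the 64 and did not pass the adjustment (edgeR, adjusted p = 0.785). At 18S 868 the score was 1.91, 3.82, 3.91 and 3.26, where animal 1 was low through a mock termination of 3.46% against 1.55% to 1.82% in the others, and the control mean was 2.75 ± 0.637. At 28S 3429 it was 3.67 ± 1.21 against 2.93 ± 0.904. At 18S 1627 and 28S 3389, 3512 and 4056 the control score was above 3, and the sites missed the call through a control CMC termination of 2.72%, 2.49%, 2.92% and 2.88%. The copies give these contexts for 4 of the 7.
18S 868 (chr17:39847217-39847233): aggaataaTggaatagg
18S 1627 (chr17:39847976-39847992): gcaattatTccccatga
28S 4056 (chr9:123461965-123461981): taactggcTtgtggcgg
28S 4205 (chr9:123462114-123462130): agacaggtTagttttac
In the other direction, 6 sites were called in control alone, the 2 in 5.8S and 18S 93, 18S 611, 28S 4620 and 28S 4658. In Rnmt cKO their scores were 2.67 ± 0.852, 2.77 ± 0.492, 2.80 ± 0.674 and 2.81 ± 0.564 for the last 4, all with a CMC termination above 3%.

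The 10 positions that DESeq2 set apart formed a single stretch, at stops 28S 4576 to 4592, from 139 to 155 nt before the 3′ end of 28S. At each of them the CMC effect was higher in Rnmt cKO than in control. At stop 4585 the ratio of CMC to mock termination was 1.51, 2.39, 2.40 and 2.93 in the 4 Rnmt cKO animals, with 4.51% in CMC and 2.14% in mock, and 0.754 ± 0.237 in control (DESeq2, adjusted p = 0.000175; edgeR, adjusted p = 0.387). At stop 4579 it was 2.45, 1.90, 2.27 and 4.70 against 0.953 ± 0.436 (DESeq2, adjusted p = 0.0355; edgeR, adjusted p = 0.767). These 2 stops, 28S 4578 and 4584 by the shifted numbering, were the ones in this stretch with a log2 change above 1 for CMC against mock in Rnmt cKO, and neither was called. Stop 4583 had 0.65 (edgeR, adjusted p = 0.0375), and the others of the 10 were not past the threshold in Rnmt cKO (adjusted p from 0.0885 to 0.272). In control the log2 change was negative at all 10, from -1.10 to -0.20, and none passed (edgeR, adjusted p from 0.0517 to 0.692). The windows of these stops overlap, so the stops are not independent. The mock library of control animal 1 held 61.7% of its read starts on 28S, against 55.5% to 56.8% in the other control mock libraries. DESeq2 was not run without that animal.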

How the data were processed

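Total RNA of each replicate was split into a CMC and a mock arm. Per the study's methods, the authors extracted a 10 nt random barcode, trimmed adapters, aligned reads with bowtie2 to custom rRNA sequences, removed PCR duplicates and dropped alignments with a mapping quality under 20. They deposited counts of read starts per nucleotide of 18S, 28S, 5.8S and 5S rRNA (1871, 4731, 156 and 120 nt), not normalised. The submitters' processing notes also name STAR 2.5.2b, SAMtools, deepTools and mm10, with no role given. Coverage was not in the files, so termination used the starts in 65 nt (75 cycles less the barcode), which can only lower it.

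CMC was tested against mock with edgeR 4.0.16 (quasi-likelihood, offset log window starts, animal as block), 2-sided, at positions that averaged 1% termination or more and had at least 100 window starts in each library. Arms were paired because both came from the same RNA; deviations of an animal's libraries from their group means correlated at 0.104, 0.153, 0.164 and -0.0629, and the CMC libraries of animals 2 and 4 correlated better with the mock library of another animal (0.202 and 0.406), so the pairing rests on the protocol and not on the values. No pair of replicates agreed within sampling noise (12 pairs, chi-square divided by its degrees of freedom 2.53 or more). Pairs with the mock library of animal 1 gave 13.0 to 14.9, and the other mock pairs 2.53 to 6.44. The CMC pairs gave 4.86 to 14.2. The mock library of animal 1 also held 8.21% of its read starts on 5.8S, against 11.0% to 12.4% in the other mock libraries. On simulated data for this comparison, 197 of 200 positions changed by a factor of 2 were recovered among 4015, with 14 unchanged positions called. Positions were drawn independently with the observed window starts held fixed, so a raised stop did not enter the windows 3′ of it as in the real data. DESeq2 1.42.0, limma 3.58.1, TMM, median-ratio scaling, other windows, filters and thresholds, and leaving out each animal were alternatives. R 4.3.3, Python 3.11.15, scipy 1.17.1 and matplotlib 3.10.9 were used.

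Named positions were the 8 called sites of highest PSU score, the 5 of highest CMC termination, the 5 largest falls, the 3 most and 3 least variable scores, the 2 on each side of either threshold, the sites called in Rnmt cKO alone and the 5 largest uncalled changes. Others (5.8S, the remaining sites called in control alone, the strongest mock stops and the stretch near the 3′ end of 28S) were chosen after their values were seen. Members, rules and lists were chosen with earlier results of these data known.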

Additional observations from a re-analysis of the deposited data

Results flagged for a closer look

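In 3 of 40 named positions the PSU score of a single animal lay far from the other 3 by Dixon's test. Chance gives about 1 in 20 for positions not picked on their scores. Many of the 40 were picked on these scores, and 18S 1058 was named for its large spread, so that rate cannot be used here. At 18S 109 animal 2 had 9.51 and the others 6.63 to 7.04. At 18S 1058 animal 1 had 10.4 and the others 4.94 to 5.84. At 28S 4181, the stop at 4182, animal 1 had 1.04 and the others 0.409 to 0.516, and the log2 change was -1.10 without that animal against -0.84 with it.

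The named positions and the 10 set apart by DESeq2 were searched for opposite CMC effects in the 2 genotypes. At 3 of them every Rnmt cKO animal had a higher termination in CMC than in mock and every control animal a lower one. All 3 are among the 10, which were chosen for a difference between genotypes in these same libraries. Their separation therefore describes that choice and is no further support for it. The mean ratio was 1.54 in Rnmt cKO and 0.580 in control at 28S 4575, 1.39 and 0.577 at 28S 4581, and 1.62 and 0.551 at 28S 4582. The difference did not pass the edgeR test (adjusted p = 0.767, 0.767 and 0.387) and passed that of DESeq2 (adjusted p = 0.0375, 0.0355 and 0.000175).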

How the results depend on the processing

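The count of 322 positions that differed between CMC and mock was 212 with DESeq2 (184 higher, 28 lower), and 572 and 709 with windows of 40 and 30 nt, where more positions passed the filter (5439 and 6057 tested). Leaving out an animal gave 149 to 296. Without the replicate block the count was 428, with 276 higher and 152 lower. Over the 7 remaining alternatives it lay within a factor of 1.5, between 234 and 474. The 64 called sites became 38 with a CMC threshold of 5% and 37 when only sites on a known T were kept, since sequence was at hand for 37. Leaving out an animal gave 59 to 68, and the other 9 alternatives 43 to 78; when both thresholds had to hold in every animal 43 remained. The median score of 5.09 over the sites lay between 4.49 and 5.47 under all alternatives. The interaction gave 10 positions with DESeq2 and 0 to 1 without an animal, the 1 without control animal 1; with the number as replicate block it gave 0. Of 595 log2 changes recomputed at named positions none changed sign and 18 lost the threshold, all of them at falls; of 320 recomputed scores 12 moved by more than the SD between animals, under the other windows or with a pseudocount of 0.1%. Stops after T that were higher and not called, 37, numbered 18 without animal 2. The cause of these changes was not tested. The fewest read starts behind a called stop were 20 in the mock arm and 239 in the CMC arm.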
